A study of Homo sapiens with 2 samples.

Results

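The zinc finger genes of chromosome 19 were followed after knockdown of THOC2. They were taken as every probe on chromosome 19 whose gene name is ZNF, a number and at most 1 more letter. This rule found 248 genes, with 373 probes, among the 43316 gene names and 58199 probes of the array, and it used no measured value. Of these genes, 238 are protein-coding and 10 are transcribed pseudogenes. The data came from A375, an established human melanoma cell line. RNA was taken 48 h after transfection from 1 culture given an siRNA against THOC2 and from 1 culture given a negative control siRNA (NC), and each was measured on 1 Agilent array with a single dye. With no replicate of either condition no test between conditions was possible, and every value below compares these 2 arrays. The labels of each array conflict, since its source field gives the opposite condition to its title and description. Groups here go by title and description, and the 2 THOC2 probes were lower on the array so labelled (log2 fold changes of -1.42 and -0.63). Their mean of -1.03 became -0.51 with normexp, another background correction. As used here, normexp adds 50 to every signal, which shrinks ratios, those of dim probes most. The methods list several siRNAs against THOC2 and do not say which one the array used, so an effect of that one siRNA on other transcripts and an effect of THOC2 loss cannot be told apart.

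Many proteins of this family carry a KRAB domain in front of a row of C2H2 zinc fingers. The fingers bind DNA, often in transposable elements, and the KRAB domain recruits TRIM28 (KAP1), which brings the histone methyltransferase SETDB1 and silences chromatin. The genes arose by tandem duplication and lie in clusters along both arms of chromosome 19. THOC2 is a subunit of the THO complex, which couples transcription to export of mRNA from the nucleus.

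Tandem duplication left finger-coding stretches that are alike from gene to gene, and some array probes lie in them. Probes were searched on both strands for the stretch of coding letters that marks a C2H2 finger (14 positions, 9 of them fixed and the others open to any base) and for that of the conserved linker between fingers (14 positions, 10 fixed). The finger letters were found in 35 member probes and the linker letters in 13, all on the strand of the probe as printed, and no probe held both, so that 48 of 373 (12.9%) held one or the other. On the printed strand the same was true of 5.73% of the 419 ZNF probes on other chromosomes and of 0.186% of all probes. Over all probes the opposite strand, not counted in these shares, held the finger letters in 27 and the linker letters in 3. The probes shown here are those of named members that hold these letters and were detected on at least 1 array, since the members with a bound of 2-fold or more (below) are all among them. Positions are those of the deposited annotation (hg19), each probe is 60 bases long, and capitals mark the finger letters, the 14 positions that matched.
ZNF57, chr19:2917775-2917834, plus strand: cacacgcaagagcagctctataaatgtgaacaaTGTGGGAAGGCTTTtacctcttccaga
ZNF749, chr19:57956666-57956725, plus strand: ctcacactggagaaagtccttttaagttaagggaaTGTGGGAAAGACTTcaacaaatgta
ZNF461, chr19:37129650-37129709, minus strand: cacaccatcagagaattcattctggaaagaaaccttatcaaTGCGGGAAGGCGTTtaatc
ZNF461, chr19:37129687-37129746, minus strand: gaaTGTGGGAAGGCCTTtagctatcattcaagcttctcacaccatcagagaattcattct
ZNF836, chr19:52658130-52658189, minus strand: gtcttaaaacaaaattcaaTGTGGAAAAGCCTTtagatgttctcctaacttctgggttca
ZNF208, chr19:22154265-22154324, minus strand: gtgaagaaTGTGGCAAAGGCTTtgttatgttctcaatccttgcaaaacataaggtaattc

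The ZNF461 probes overlap by 23 bases and each holds its own copy of the finger letters. Runs of at least 20 identical bases were shared by 30 pairs of probes of different member genes, involving 24 probes and mostly genes of 19p12. The longest run, 34 bases, was shared by the probes of ZNF253 and ZNF85. A signal on such a probe may include RNA of the related gene, and its part in the values was not tested.

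A probe was taken as detected where the scanner software marked its signal as well above background. On the NC array 238 of 373 member probes (63.8%) were detected, and on the THOC2 siRNA array 216 (57.9%). Over all probes these shares were 42.3% and 39.4%. Of the members, 208 probes of 168 genes were detected on both arrays, 30 on the NC array only, 8 on the THOC2 siRNA array only and 127 on neither. Over all probes, too, more were detected on NC only (2409) than on THOC2 siRNA only (729). The 246 probes of 191 genes detected on at least 1 array were compared.

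Detection differed along the chromosome. In 19p13, 45 of 65 member probes (69.2%) were detected on both arrays, and in 19q13.43, at the tip of the long arm, 53 of 75 (70.7%) were. In 19p12, the cluster beside the centromere, 24 of 54 (44.4%) were, and in 19q13.41 21 of 51 (41.2%) were. Shares were also below the 55.8% of all members in 19q13.12 (20 of 45, 44.4%) and 19q13.11 (5 of 13, 38.5%). None of these bands fell below the share over all probes of the array, 38.2%. For other genes of the same bands the shares were 27.9% (19p12), 27.5% (19q13.41), 47.8% (19q13.12) and 41.0% (19q13.11). ZNF91, a 19p12 gene whose protein represses SVA retrotransposons, was not well above background with any of its 3 probes on either array. ZNF382, a KRAB repressor of 19q13.12, was likewise undetected with both of its probes.

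**Figure D1:**
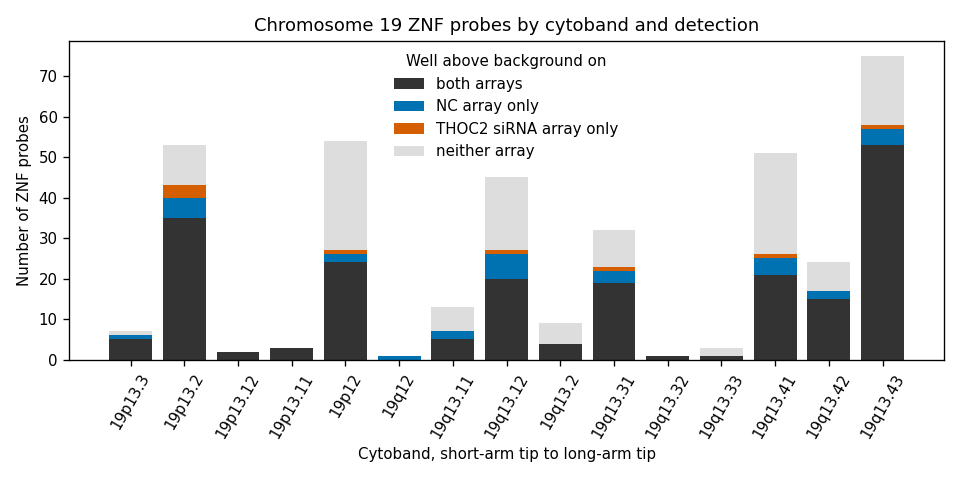
Number of ZNF probes in each cytoband of chromosome 19, in order along the chromosome, split by the arrays on which they were well above background (black both, blue NC only, orange THOC2 siRNA only, grey neither). In 19p12 and 19q13.41 the black part is 44.4% and 41.2% of the bar, and in 19q13.43 it is 70.7%.

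Signals are given as the processed signal of each array, before scaling. For fold changes the log2 signals were scaled to the 75th percentile of their array, which lay at 6.62 (NC) and 6.31 (THOC2 siRNA), so equal signals give a log2 fold change of 0.31. Log2 fold changes are THOC2 siRNA over NC. Their technical SD, from probes that the array holds on at least 3 spots, was 0.29 at a mean unscaled log2 signal of 4 to 6 (where 89 of the 208 members lay), 0.11 at 6 to 8 (62 members) and 0.06 above 8 (57 members). The value for the range of 4 to 6 rests on 6 probes, and these SDs leave out any difference between cultures. Under 4 the SD was 0.44, from 14 probes, and that range holds the ZNF208 probe described later. ZNF587 was spotted 10 times on each array, and the SD over these log2 signals was 0.056 (NC) and 0.053 (THOC2 siRNA), and its log2 fold change was -0.08.

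No member detected on both arrays passed 2-fold. Of the 246 compared, 7 were lower by 2-fold or more (2-fold being the threshold for a call) and 5 were higher, against 3.33% lower and 2.93% higher of all 25345 compared probes. All 12 were dim on 1 of the arrays. Of the 208 detected on both arrays 0 passed 2-fold in either direction, against 0.365% lower and 0.829% higher of all 22207 such probes. At 1.5-fold, 3 of these members were lower and 6 higher, against 2.94% and 3.84% of all probes. The 3 lower probes were those of ZNF44, ZNF441 and ZNF160, and the 6 higher ones those of ZNF616, ZNF227, ZNF224, ZNF865, ZNF57 and ZNF542P.

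The members' values centred slightly above 0, as did those of all probes. The median log2 fold change of the 208 members was 0.08 (interquartile range -0.05 to 0.23, lowest -0.66, highest 0.91), and 133 (63.9%) lay above 0 and 75 below. Above 0 lay 56.9% of all probes detected on both arrays, 65.2% of the other probes of chromosome 19 and 51.4% of the ZNF probes elsewhere. The median was 0.04 for all 22207 probes detected on both arrays, 0.10 for the 1146 other probes of chromosome 19, and 0.01 for the 255 ZNF probes on other chromosomes. The members' median thus lay nearer to that of their neighbours on the chromosome than to that of the ZNF genes elsewhere, a difference that was not tested. The spread of the members (SD 0.26) was below that of all probes (SD 0.32). Counted by gene, 113 of 168 had a mean above 0 and 55 below, with a median of 0.10, against 10061 of 17534 above 0 and a median of 0.04 for all genes.

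Members beyond 2 technical SDs were mostly on the higher side. Of the 208, 53 (25.5%) lay above 2 technical SDs and 12 (5.77%) below, while of all probes 25.5% lay above and 15.9% below. These shares were not taken at like limits, since the technical SD is smaller for bright probes and the members were dimmer. Above a mean log2 signal of 8 lay 57 of the 208 members and 10015 of all 22207 probes. Over all probes the median rose with the share of G and C in the probe, from -0.03 up to 35% to 0.11 above 50%. The members' own medians were 0.07 and 0.17 in these ranges, and their median probe held 41.7% G and C, against 45% for all probes and 50% for the others of chromosome 19. The part of base composition in the medians was not tested.

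**Figure D2:**
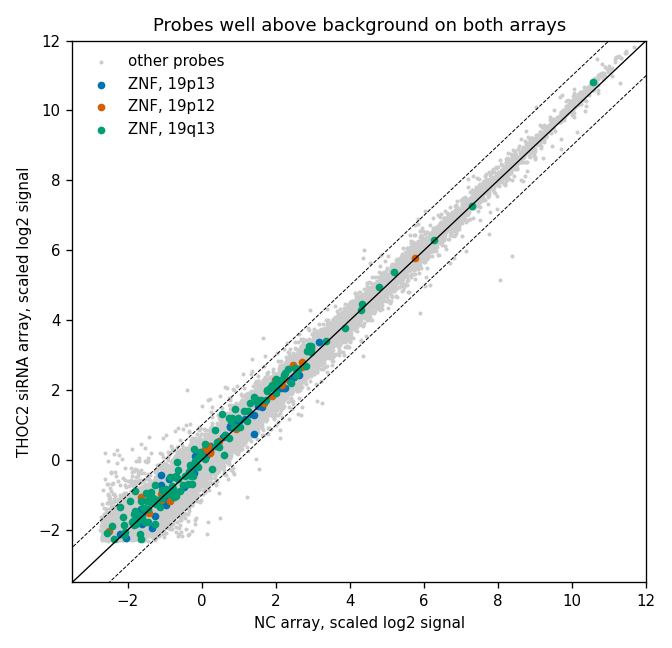
Scaled log2 signal of each probe well above background on both arrays, NC on the horizontal and THOC2 siRNA on the vertical axis, with all other probes in grey and the 208 chromosome 19 ZNF probes coloured by region. The solid line marks equal values and the dashed lines 2-fold, and no coloured point lies outside the dashed lines.

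The bands of the chromosome did not have the same medians. In 19q13 the 139 probes detected on both arrays had a median of 0.13, with 94 above 0 and 45 below. In 19p12 the median of 24 probes was 0.05, with 15 above and 9 below. In 19p13 it was 0.01 over 45 probes, with 24 above and 21 below. Most of the 19p13 probes lay in 19p13.2, where the median of 35 ZNF probes was -0.02 (16 above 0, 19 below) and that of the 156 probes of other genes in the same band 0.12. In 19q13.43 the 53 ZNF probes had a median of 0.14 and the 31 probes of other genes 0.15. In 19p13.2, 3 ZNF probes (8.57%) lay above 2 technical SDs and 7 (20%) below. In 19q13.43 the numbers were 23 (43.4%) and 1 (1.89%). Of all probes 25.5% lay above and 15.9% below, so the share below in 19p13.2 was near that of the array. Single probes spread with an SD of 0.23 in 19p13.2 and 0.22 in 19q13.43, and with 1 array per condition the difference between the bands was not tested.

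**Figure D3:**
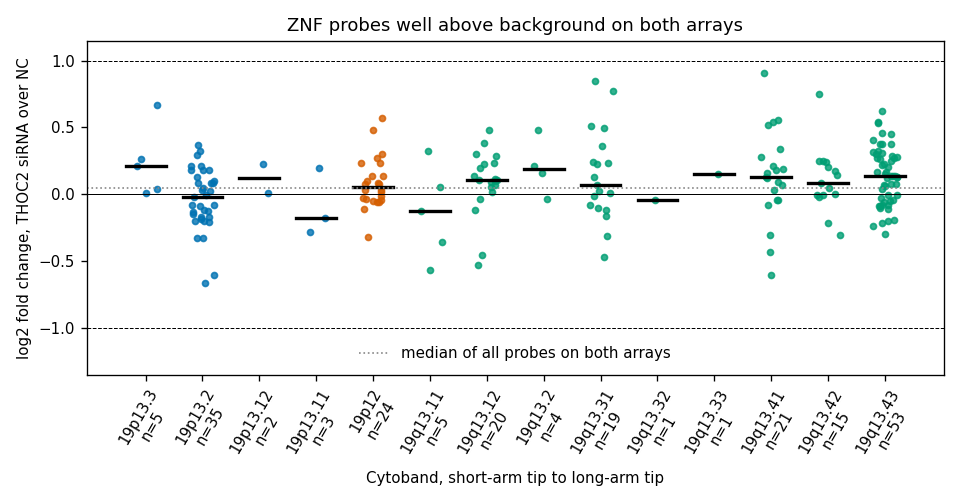
Log2 fold change (THOC2 siRNA over NC) of the 208 ZNF probes well above background on both arrays, by cytoband along chromosome 19. Each point is a probe, the thick bar is the band's median, the dotted line is the median of all probes (0.04) and the dashed lines mark 2-fold. All points lie between the dashed lines, and the 19p13.2 median (-0.02) lies below that of 19q13.43 (0.14).

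Of the 8 largest decreases among genes whose probes on both arrays all had the same sign, 4 lay in 19p13.2. That band held 28 of the 168 member genes with a probe detected on both arrays, and 19q13 held 114. ZNF441 read 38.3 on NC and 20.4 on THOC2 siRNA (log2 fold change -0.60, technical SD 0.29). ZNF44 had 2 detected probes, one at 258 and 132 (-0.66, technical SD 0.11) and the other at 52.0 and 37.4 (-0.17, technical SD 0.29). Both ZNF44 probes were thus lower, but only the brighter of them by more than 2 technical SDs. ZNF844 (50.2 and 32.2, -0.33) and ZNF490 (40.4 and 26.0, -0.33), also in 19p13.2, differed by little more than 1 technical SD. The other 4 of the 8 largest decreases lay in 19q13. ZNF570 had signals of 31.1 and 18.3 (-0.45), and ZNF175, whose product OTK18 was described as an antiviral factor in macrophages, had 81.5 and 48.7 (-0.43). ZNF235 (-0.31) and ZNF460 (-0.30) were smaller still, and all 4 were within 2 technical SDs of 0. With normexp ZNF441 had -0.06 and ZNF570 -0.10, and ZNF44 kept the lowest value of the 8 genes, a mean of -0.30 against -0.41.

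The 8 largest increases lay in 19q13 apart from ZNF57, in 19p13.3. Of the 168 member genes with a probe detected on both arrays, 114 lay in 19q13. ZNF616 had the highest value, with signals of 28.1 and 42.6 and a log2 fold change of 0.91 (technical SD 0.29). Close neighbours in 19q13.31, ZNF227 (21.3 and 31.0, 0.85) and ZNF224 (25.5 and 35.2, 0.77), came next, and ZNF224 encodes a KRAB repressor first known for acting on the aldolase A gene. ZNF235, from the list of decreases, lies in the same cluster, but its value (-0.31) was within 2 technical SDs of 0. Of the 19 ZNF probes of 19q13.31 detected on both arrays, 12 lay above 0 and 7 below. ZNF57, whose probe is printed above, had signals of 45.6 and 58.4 (0.67). The transcribed pseudogene ZNF542P (61.3 and 76.2, 0.62, technical SD 0.11) and ZNF551 (184 and 216, 0.54, technical SD 0.11) in 19q13.43 were brighter and lay well beyond their technical SD. ZNF577 (34.7 and 40.8, 0.54) and ZNF582 (18.15 and 21.2, 0.53), the latter known as a methylation marker in cervical cancer, were dim and within 2 technical SDs of 0. With normexp these 8 values lay between 0.20 for ZNF582 and 0.37 for ZNF616.

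The 12 members past 2-fold were all at the edge of detection. Where a signal was not well above background, a fold is only a bound, taken against the lowest signal that was well above background on that array (14.7 on NC, 15.9 on THOC2 siRNA). Such a bound leaves out the error of single spots, and an undetected signal can lie slightly above that lowest signal. For 4 of the 12 the bound was 2-fold or more. ZNF208, a gene of 19p12, had a signal of 2.96 on the NC array, not well above background, and 43.6 on the THOC2 siRNA array, at least 3.69-fold higher. ZNF836 (12.1 and 28.1) was at least 2.37-fold higher. ZNF461, once named for its induction by gonadotropin, was at least 2.32-fold higher with 1 of its probes (13.6 and 27.4). ZNF749 was the only lower one, at least 2.31-fold, with signals of 45.5 and 14.6. Over all compared probes 1.88% passed 2-fold upward in this way and 0.888% downward.

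Each of these 4 bounds rested on 1 probe, and no other detected probe of the same genes passed 2-fold. ZNF461 has an overlapping probe, printed above, that was detected on both arrays (27.2 and 23.5) with a log2 fold change of 0.10, and a probe elsewhere in the gene that was not detected on either. The second ZNF836 probe was not detected on either array, and ZNF208 and ZNF749 have 1 probe each. The bounds were taken with the scanner's background subtraction only. With normexp, the log2 fold changes were 0.86 for ZNF208, 0.46 for ZNF836, 0.37 for ZNF461 and -0.29 for ZNF749. Normexp adds 50 to every signal, more than any signal of these probes, and so shrinks their ratios whatever the change. These values therefore cannot decide whether the bounds hold under another background correction. All 4 of these probes hold the finger letters. Of the 33 compared member probes with finger or linker letters 1 was lower and 3 were higher by 2-fold, and of the 213 others compared it was 6 and 2. The medians of those detected on both arrays were 0.07 (25 probes) and 0.09 (183 probes).

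For the remaining 8, named here after their values were seen, the bound was small or could not be given. ZNF527 (20.5 and 3.26), ZNF432 (21.4 and 4.54) and ZNF699 (20.7 and 4.84) were detected on the NC array only, and their bounds were at least 1.04-fold, 1.09-fold and 1.05-fold lower. ZNF587B (18.96 and 5.89), ZNF99 (18.1 and 6.08) and ZNF285 (15.98 and 6.39) gave no fold, because their NC signal scaled to less than the limit of the other array. A second ZNF587B probe, detected on both arrays, had signals of 516 and 364 and a log2 fold change of -0.19. ZNF560 (8.83 and 16.1) and ZNF439 (5.53 and 17.9), both in 19p13.2, were detected on the THOC2 siRNA array only and were at least 1.37-fold and 1.52-fold higher.

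**Figure D4:**
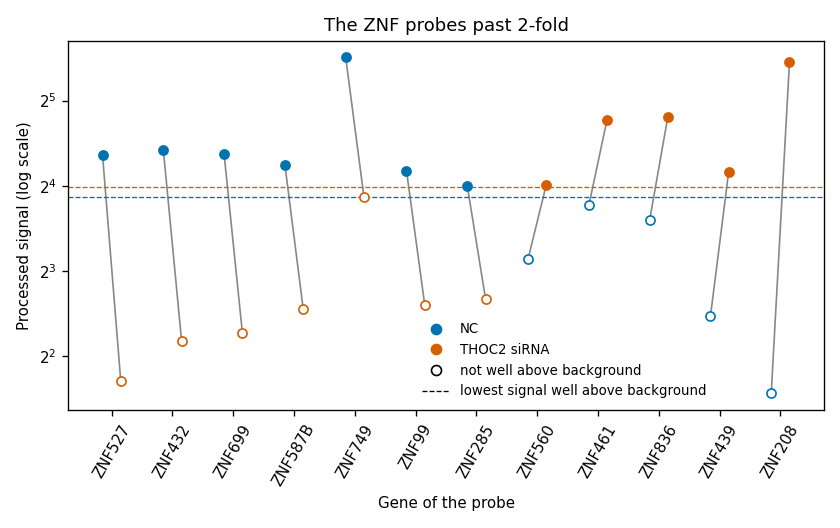
Processed signal, on a log axis, of the 12 ZNF probes past 2-fold, on the NC array (blue) and the THOC2 siRNA array (orange). Open points were not well above background and each dashed line marks the weakest detected signal of an array. Every pair has 1 open point, and ZNF208 has the widest gap (2.96 and 43.6).

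Probes of the same gene often lay on different sides of 0, many of them close to it. Of the 36 member genes with more than 1 probe detected on both arrays, 18 had all probes on the same side of 0 and 18 had probes on both sides. Over all 3750 such genes 58.4% had theirs on the same side. Only the sign was counted, whatever the technical SD, so pairs near 0 such as ZNF714 (-0.01 and 0.03) count as opposite. The median range between the probes of a gene was 0.27 for the members and 0.20 for all genes. ZNF134 had the closest pair (0.37 and 0.38), and ZNF544 was another (0.31 and 0.32), both in 19q13.43. Both ZNF544 probes lay above 2 technical SDs, but of the ZNF134 probes only the brighter did. ZNF254, in 19p12, was near 0 with 3 probes (-0.03, -0.06 and -0.04). ZNF865 had the widest range, with 0.75, -0.31 and 0.24 on 3 probes within its 19q13.42 locus. Its probe at -0.31 (technical SD 0.29) lay within 2 technical SDs of 0. ZNF160, whose probe was among the 3 lower by 1.5-fold (31.1 and 16.5, -0.60), had 0.18 on another (78.3 and 71.6). The value of 0.18 (technical SD 0.11) lay within 2 technical SDs of 0. These genes were named after their values were seen.

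**Figure D5:**
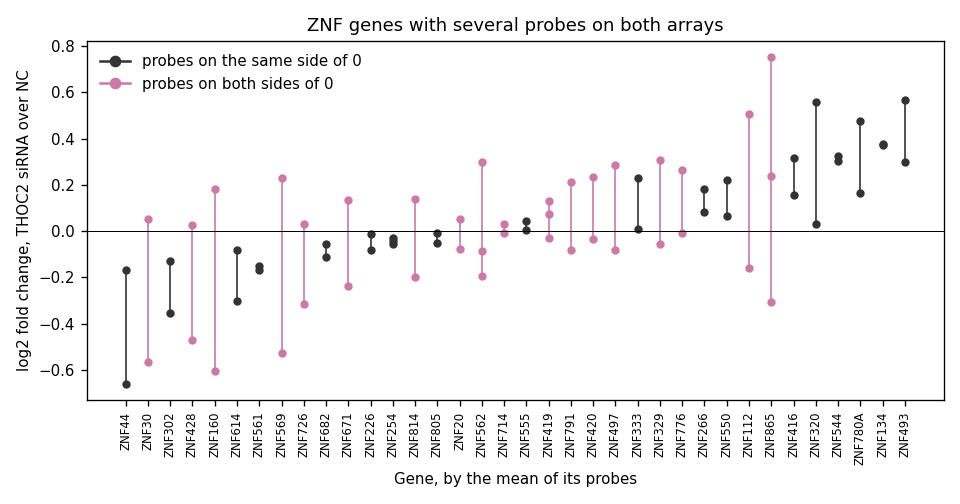
Log2 fold change (THOC2 siRNA over NC) of each probe of the 36 ZNF genes with more than 1 probe well above background on both arrays, with genes ordered by their mean. A line joins the probes of a gene, black where all are on the same side of 0 (18 genes) and pink where they are not (18 genes), and ZNF865 has the longest line.

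Of the 6 members listed for a known role, ZNF224 (0.77, above) lay beyond 2 technical SDs, ZNF91 and ZNF382 were not detected, and the others lay within 2 technical SDs of 0. ZNF93, which represses L1 retrotransposons, had signals of 17.2 and 19.4 and a log2 fold change of 0.48 (technical SD 0.29). ZNF274, which binds the ends of other ZNF genes and brings SETDB1 to them, had 180 and 152 (0.07, technical SD 0.11). ZNF331, an imprinted gene, had 46.4 and 37.4 with the 1 probe detected on both arrays (-0.00). All 27 genes of a list of KRAB corepressors were detected on both arrays. The list holds TRIM28 and SETDB1 and also broader chromatin genes such as DNMT1, UHRF1 and MTA1, so not all are partners of KRAB proteins. Of these genes 20 had a mean above 0 and 7 below, with a median of 0.06, against 10061 of 17534 above 0 and a median of 0.04 for all genes. Of the 27, 0 passed 2-fold, as did only 64 downward and 158 upward of the 17534. TRIM28 itself, which lies in 19q13.43 among the ZNF genes, had signals of 3818 and 4011 and a log2 fold change of 0.38 (technical SD 0.06), which was 0.31 with quantile normalization, lowess centring or the authors' values and 0.25 with normexp. The 3 probes of SETDB1 gave 0.14, -0.08 and 0.15. The list ran from TRIM33 at -0.38, a relative of TRIM28, to UHRF1 at 0.62, which reads hemimethylated DNA.

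As a check of the cell line, SOX10, the lineage factor of melanocytes, was bright on both arrays (6196 and 5196), and MITF was detected with 2 of 3 probes. S100B was detected with 1 of its 2 probes (199 and 102, log2 fold change -0.66, technical SD 0.11). DCT was detected but dim (18.0 and 24.4, 0.75, technical SD 0.29). The pigment genes PMEL, TYR and TYRP1 were not well above background on either array, and MLANA was so on the THOC2 siRNA array with 1 probe only (2.94 and 18.7).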

How the data were processed

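RNA of 1 NC culture and 1 THOC2 siRNA culture was measured on 1 Agilent array each. The deposited scanner output holds the intensity of each spot, made by the authors with Agilent Feature Extraction 10.7.1.1, which subtracts background and marks signals well above background, and these deposited marks were used as given. Normalized log2 values, deposited by the authors for both arrays, served as an alternative. They also deposited a table of their own comparison with fold changes and a signed fold score, which was not used. Gene names, cytobands and positions (hg19) come from the deposited annotation and were not converted to another build. The methods' threshold of 2-fold was kept, while their Student's test needs more than 1 array per condition.

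Control spots were left out, as were outlier spots (0 of the 382 member spots per array), and repeated spots were averaged per probe. Log2 processed signals were scaled to the 75th percentile of each array. A probe was compared where either array had it well above background, and 2-fold was the threshold. The members, the gene lists and the rule for named genes were chosen with earlier results of these data known. The rule took THOC2, the 8 largest mean decreases and increases among genes whose probes on both arrays all had the same sign, each bound of 2-fold or more, 6 ZNF genes with a known role, TRIM28 and SETDB1. The count beyond 2 technical SDs was added after the values were seen. All 248 gene names matched the current gene table, 3 of them through a synonym. Protein sequences were not used here, so KRAB domains and numbers of fingers were not counted. The number of arrays limits the precision.

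Alternatives were no detection filter, detection on both arrays, dim signals at their limit, quantile normalization, median scaling (probes detected on both arrays), centring on 128 blocks of spots, lowess (span 0.3), normexp (offset 50), the values the authors normalized, counting genes instead of probes, and folds of 1.5 and 3. R 4.3.3 (limma 3.58.1) gave the normexp values, and the rest was done in Python 3.11.15 (pandas 2.3.3, numpy 2.4.6, statsmodels 0.14.6, scipy 1.17.1). The comparison was tested on simulated data, with shifts set only in probes with a log2 signal above 6. That test therefore did not cover dimmer probes, such as the members past 2-fold.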

Additional observations from a re-analysis of the deposited data

How the results depend on the processing

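The number of members past 2-fold depended on how dim signals were treated. The counts of 7 lower and 5 higher were 4 and 8 with lowess centring, 0 and 0 with normexp, 1 and 3 with dim signals at their limit, 0 and 0 among probes on both arrays, 12 and 20 with no detection filter, 3 and 2 at 3-fold and 19 and 14 at 1.5-fold. They were 7 and 5 with quantile normalization, median scaling, the authors' values and block centring. The median of the 246 compared members, 0.07, ranged from 0.03 with block centring to 0.12 with no filter and was above 0 in each alternative. No filter moved the median of all probes from 0.03 to 0.31. Under it the members' median minus that of all probes reversed from 0.04 to -0.18, the median of ZNF probes on other chromosomes from -0.01 to 0.054, and the 19p12 median moved to 0.23. Undetected probes then also turned the mean of ZNF175 to 0.013, ZNF235 to 0.21, ZNF441 to 0.65 and ZNF582 to -0.021. Over the 40 detected probes of the corepressor list the median was 0.08, and 0.012 with normexp. Of the 26 named genes 25 had a smaller log2 fold change with normexp (ZNF331, at -0.00, became 0.03), among them THOC2 (-1.03 to -0.51), ZNF224 (0.77 to 0.36), ZNF227 (0.85 to 0.31), ZNF57 (0.67 to 0.32) and ZNF844 (-0.33 to -0.04). Normexp adds 50 to every signal, which shrinks the ratios of dim probes by construction. That remark covers dim probes only, and TRIM28, with signals of 3818 and 4011, also moved (0.38 to 0.25). Other causes of these differences were not tested. The 19p13 median lay between -0.06 and 0.03. The log2 fold change of ZNF208 ran from 0.86 with normexp to 4.67 with lowess centring. The medians by KRAB motif and by number of fingers were not run. No paired analysis was possible because each condition has a single array.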
